A study of Mus musculus with 6 samples.

Results

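The 8 genes described here encode transcription factors of the developing heart: Nkx2-5, Gata4, Tbx5, Tbx20, Mef2c, Hand1, Hand2 and Isl1. They were taken by name, and a probe was assigned to one of them where its accession belonged to that gene in RefSeq. The array held 10 such probes among 55418 measured, 3 of them for Tbx20 and 1 for each of the other genes. RefSeq (GRCm38.p6) places Tbx5 on chromosome 5, Hand2 on 8, Tbx20 on 9, Hand1 on 11, Mef2c and Isl1 on 13, Gata4 on 14 and Nkx2-5 on 17. All 8 genes entered the tests, which covered 21420 genes and unnamed features. The study compared embryoid bodies, floating aggregates in which embryonic stem cells differentiate, grown from wild-type (WT) mouse stem cells and from stem cells with a triple knockout of Tet1, Tet2 and Tet3 (TKO). The TET enzymes oxidise 5-methylcytosine in DNA. Both genotypes had a mixed 129/C57BL6 background and spent 2 days in hanging drops and a further 8 days in suspension, throughout without LIF, the factor that sustains self-renewal. WT was represented by 1 line, and TKO by the independent lines TKO#26 and TKO#29, written TKO_26 and TKO_29 below. Each line had 2 arrays, which the series calls technical replicas, so the p-values of each line against WT cover the spread between arrays and not that between lines.

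These factors form a network that specifies and builds the heart. ISL1 marks progenitors of the second heart field, the homeodomain protein NKX2-5, the zinc finger protein GATA4 and the T-box protein TBX5 bind together at genes of heart muscle, and TBX20, MEF2C, HAND1 and HAND2 act beside them in the growth of the heart tube and chambers. Most also work elsewhere: GATA4 in extraembryonic endoderm, HAND1 in trophoblast, MEF2C in endothelium and muscle, HAND2 in neural crest, and ISL1 in motor neurons and pancreas. In embryoid bodies their expression accompanies the appearance of beating areas.

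Values are log2 processed signals minus the 75th percentile of the array (over probes well above background everywhere), so that 0 is that percentile and a difference of 1 is 2-fold. A level is read only against the same probe on other arrays. From 38.4% (TKO_26 replicate 1) to 55.8% (TKO_29 replicate 1) of spots were well above background. Replicate arrays differed with a standard deviation of 0.33 (WT), 0.41 (TKO_26) and 0.36 (TKO_29) over the 15336 genes detected throughout. Per the file headers the arrays lay on a single slide, with each genotype in its own row or column of arrays, so slide position and genotype cannot be told apart. Of the targeted genes, Tet1 differed from WT by -1.02 in TKO_26 and -1.68 in TKO_29, Tet2 by -1.09 and -1.90, and Tet3 by 1.05 and -0.62. The call of Tet1 was lost under 8 of 15 alternatives and that of Tet2 under 3. Probe positions within these genes were not at hand, so a probe outside the deletion would check nothing. Below, "fell" and "rose" are used of genes whose change reached 2-fold with a limma adjusted p under 0.05 in TKO_26 and again, with the same sign, in TKO_29. A gene that missed this in either line did not pass.

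Of the 8 factors, 6 fell in both TKO lines and 0 rose: Hand2, Hand1, Mef2c, Tbx20, Nkx2-5 and Gata4. Of these, Mef2c was detected on no TKO array. Over all genes tested, 6.59% fell and 4.05% rose. Taken singly, TKO_26 was lower for 6 of the 8 (7.79% of all genes) and TKO_29 for 7 (11.2%), and higher for 0 in each (5.6% and 8.16% of all genes). The median difference of the 8 genes was -2.68 in TKO_26 and -3.44 in TKO_29, against 0.02 and -0.09 over all genes. Tbx5 passed in TKO_29 but not in TKO_26, and Isl1 stayed short of 2-fold in both. All 8 genes, and all 10 probes, were lower on each of the 4 TKO arrays than on either WT array, as were 25.5% of all genes, and 0 were higher on each (24.9% of all genes). In such bulk samples, fewer cells of a type and less RNA per cell cannot be told apart. The test on line averages, in which a line counts once (WT n = 1, TKO n = 2), called 2 of the 8, Hand1 and Hand2, with limma adjusted p of 0.0491 and 0.0462, beside 0.752% of all genes called lower and 0.154% called higher. With a single WT line, the spread in that test comes from the 2 TKO lines alone. Hand1 was called under 8 of 14 alternatives and Hand2 under 9 of 13. Both calls were lost with no filter on dim probes, with quantile normalization, without TKO_26 replicate 2 and without TKO_29 replicate 2. The call of Hand1 was also lost with scaling over all probes. It was lost again with signal demanded on all 6 arrays, where Hand2 was not tested.

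**Figure D1:**
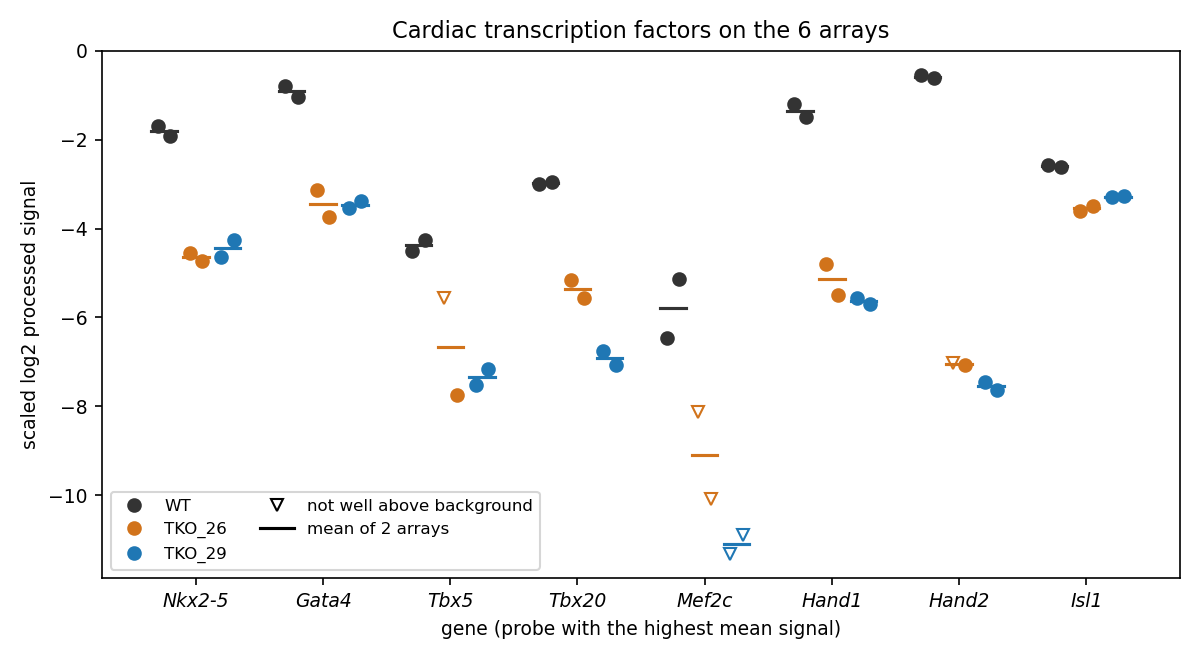
Scaled log2 processed signal (vertical axis) of the 8 cardiac transcription factors on the 6 arrays, each gene on the probe with the highest mean signal. Dots are arrays well above background, open triangles arrays that were not, and lines the means of 2 arrays; for every gene the WT arrays lie above the TKO arrays, with the widest gap for Hand2 and the narrowest for Isl1.

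HAND2, a basic helix-loop-helix factor needed for the right ventricle, showed the largest decrease of the set. Hand2 read -0.53 and -0.62 for WT, -7.02 and -7.08 for TKO_26, then -7.44 and -7.63 for TKO_29. The arrays of each line lay close together and far from the other genotype. The difference was -6.47 ± 0.13 (SE) in TKO_26 (adjusted p = 2.68e-04) and -6.96 ± 0.13 in TKO_29 (adjusted p = 2.49e-04), with n = 2 arrays per line. TKO_26 replicate 1 was not well above background, so the decrease in that line is an approximate bound of at least 67.9-fold. TKO_29 was 125-fold lower. Only 28 of the 21420 genes and features tested had a more negative difference in TKO_26, and 33 in TKO_29.

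HAND1, its close relative, is a factor of the left ventricle, the lateral mesoderm and trophoblast giant cells. Hand1 gave -1.19 and -1.49 in WT, -4.79 and -5.49 in TKO_26, and -5.56 and -5.69 in TKO_29, well above background throughout. It was 13.9-fold lower in TKO_26 (-3.80 ± 0.27, SE; adjusted p = 0.0017) and 19.4-fold lower in TKO_29 (-4.28 ± 0.27; adjusted p = 0.00125). The TKO_26 arrays stood 0.50 (SD) about their mean, wider than those of the other lines (0.21 in WT and 0.09 in TKO_29), which is small beside the decrease.

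MEF2C, a MADS-box factor of the second heart field, muscle and endothelium, was not detected on the knockout arrays. Mef2c measured -6.45 and -5.14 on the WT arrays, where it was well above background, and -8.12, -10.08, -11.32 and -10.89 on the TKO arrays, where it never was. The 2 WT arrays were themselves apart (SD 0.93). The decrease is therefore an approximate bound, at least 2.52-fold in TKO_26 and at least 9.84-fold in TKO_29. The dimmest detected signal on TKO_26 replicate 1 was -6.24, above the -6.45 of WT replicate 1. Lack of detection on that TKO_26 array thus shows no decrease from that WT array. Mef2c entered the tests through its WT arrays alone, and its adjusted p of 0.0407 and 0.00873 belong to fitted differences of -3.31 and -5.31 that rest on these undetected signals. In TKO_26 the call was lost under 8 of 14 alternative settings, among them the omission of any 1 array other than TKO_26 replicate 1 (adjusted p 0.0714 to 0.138 for those arrays). In TKO_29 it was lost without either TKO_29 array.

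NKX2-5, the homeodomain factor of early cardiac progenitors and myocytes, fell to a like degree in both lines. Nkx2-5 read -1.68 and -1.91 in WT, -4.54 and -4.72 in TKO_26, and -4.64 and -4.25 in TKO_29. It was 7.12-fold lower in TKO_26 (-2.83 ± 0.19, SE; adjusted p = 0.00152) and 6.26-fold lower in TKO_29 (-2.65 ± 0.19; adjusted p = 0.00163). The arrays of the 2 knockout lines overlapped, with a difference of -0.19 ± 0.19 between the lines (adjusted p = 0.559).

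GATA4, a zinc finger factor shared by heart and extraembryonic endoderm, followed the same course. Gata4 gave -0.78 and -1.03 in WT, -3.13 and -3.74 in TKO_26, and -3.54 and -3.39 in TKO_29. The decrease was 5.76-fold in TKO_26 (-2.53 ± 0.24, SE; adjusted p = 0.00377) and 5.88-fold in TKO_29 (-2.56 ± 0.24; adjusted p = 0.00296), and the lines differed by 0.03 ± 0.24.

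TBX5, a T-box factor of the first heart field and forelimb, was less precisely measured. Tbx5 measured -4.51 and -4.25 in WT, -5.57 and -7.74 in TKO_26, and -7.52 and -7.15 in TKO_29. The value of -5.57 came from TKO_26 replicate 1, which was not well above background, and it set TKO_26 wide apart (SD 1.54). TKO_29 was 7.76-fold lower (-2.96 ± 0.72, SE; adjusted p = 0.0326), whereas TKO_26 did not pass (-2.28 ± 0.72; adjusted p = 0.0837). Without TKO_26 replicate 1 the difference in TKO_26 was -3.36 (adjusted p = 0.00607), and without replicate 2, on the undetected array alone, it was -1.19 (adjusted p = 0.0412). Either way Tbx5 passed in both lines, but its size in TKO_26 rested on the array kept. The call in TKO_29 was lost under 6 of 14 alternatives, among them the omission of either WT array or either TKO_29 array, so that its adjusted p ranged from 0.00134 to 0.144.

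TBX20, a T-box factor needed for proliferation in the heart tube, was covered by 3 probes assigned to different RefSeq transcripts (NM_194263, NM_020496 and NM_001205085). Tbx20 on the brightest probe read -3.003 and -2.95 in WT, -5.16 and -5.57 in TKO_26, and -6.75 and -7.07 in TKO_29. There the lines fell into 3 steps, 5.24-fold below WT in TKO_26 (-2.39 ± 0.20, SE; adjusted p = 0.0026) and 15.2-fold in TKO_29 (-3.93 ± 0.20; adjusted p = 8.46e-04). TKO_26 replicate 1 was not well above background on the other probes, so TKO_26 has only a bound there. On the probe for NM_020496 the decrease was at least 3.66-fold in TKO_26 and 8.45-fold in TKO_29. On the probe for NM_001205085 it was at least 3.61-fold and 5.19-fold. All 3 probes were lower in both lines (adjusted p 8.46e-04 to 0.00567), and these bounds give no order of the lines.

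ISL1, a LIM-homeodomain factor of second heart field progenitors that also marks motor neurons, was the least changed. Its probe was printed 10 times on each array, so the precision within an array is known. After removal of 1 outlier spot on WT replicate 2 and 1 on TKO_26 replicate 1, the spots of an array had a standard deviation of 0.04 to 0.06 on every array except TKO_26 replicate 1, where it was 0.14. Isl1 averaged -2.56 and -2.62 for WT, -3.60 and -3.49 for TKO_26, then -3.30 and -3.26 for TKO_29. The spots of the 3 lines did not overlap, but spots repeat the same probe within an array and are not replicates of a line. Between the TKO lines Isl1 did not pass (limma adjusted p = 0.253). The lowest WT spot in use (-2.71) lay above the highest TKO spot (-3.19). The difference was 1.94-fold in TKO_26 (-0.95 ± 0.12, SE over arrays; adjusted p = 0.00697) and 1.61-fold in TKO_29 (-0.69 ± 0.12; adjusted p = 0.0126), past the p threshold and short of the 2-fold required here. By p alone, and with no demand on size, 7 of the 8 factors were lower in both lines, beside 10.7% of all genes.

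**Figure D2:**
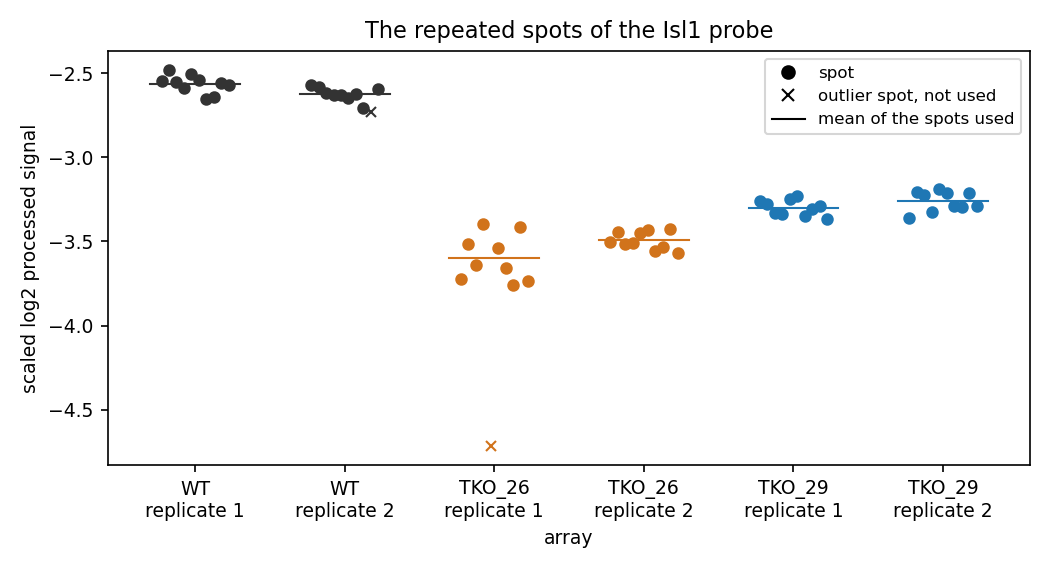
Scaled log2 processed signal (vertical axis) of the 10 repeated spots of the Isl1 probe on each of the 6 arrays (horizontal axis); lines are the means of the spots used and crosses the 2 outlier spots left out. The WT spots lie above all TKO spots, and TKO_26 replicate 1 has the widest scatter.

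No factor differed between the TKO lines by the test (0 of 8, with 0 genes called over the whole array, limma). At an unadjusted p under 0.05 these were 2 of the 8, Tbx20 on its brightest probe (1.54 ± 0.20 higher in TKO_26, SE; adjusted p = 0.0591) and Hand2 (0.49 ± 0.13; adjusted p = 0.13), beside 22.4% of all genes. Since Hand2 and Tbx5 were not detected on TKO_26 replicate 1, their differences between the lines are fitted values and not measured ones. Tbx20 passed under 3 of 15 alternatives, with a variance trend (adjusted p = 0.0239), with signal demanded on all 6 arrays (adjusted p = 0.03) and without TKO_26 replicate 2 (adjusted p = 0.0365). With the probes of the gene averaged, the difference was 0.48. The remaining 5 single-probe genes other than Hand2 and Mef2c lay between -0.27 and 0.68 (Tbx5 passed without TKO_26 replicate 2, adjusted p = 0.0462), and Mef2c, below background in both lines, has no measured difference.

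**Figure D3:**
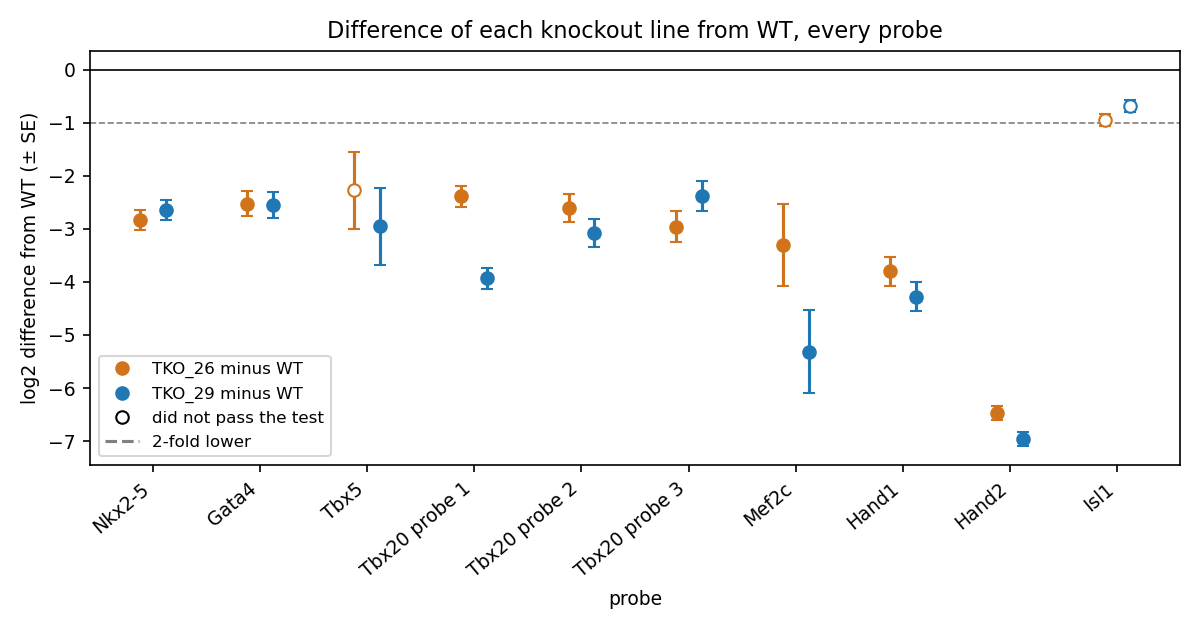
Log2 difference of TKO_26 and of TKO_29 from WT (vertical axis, ± SE of the limma fit, 2 arrays per line) for the 10 probes of the 8 genes. Filled points passed the test and open points did not; Hand2 lies lowest, between -6.47 and -6.96, Isl1 alone lies above the 2-fold line, and all 3 Tbx20 probes lie below it. The Mef2c points in both lines, and the TKO_26 points of Hand2, Tbx5 and Tbx20 probes 2 and 3, include arrays not well above background, where only a bound was measured.

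The promoters of these genes are shown because CpG dinucleotides carry the 5-methylcytosine on which TET enzymes act, although methylation was not measured here. RefSeq promoter sequence (GRCm38.p6) was at hand for 5 of the 8 genes, Hand2, Mef2c, Tbx20, Nkx2-5 and Isl1, with 3 start sites for Mef2c. For Hand1, Tbx5 and Gata4 no promoter sequence was at hand. The 250 bases before the start site follow, 5′ to 3′ on the strand of the gene, with each CpG in capitals; for Mef2c the first of its start sites is given. Positions are chr8:57320733-57320982 (+) for Hand2, chr13:83503784-83504033 (+) for Mef2c, chr9:24774304-24774553 (-) for Tbx20, chr17:26841566-26841815 (-) for Nkx2-5 and chr13:116309689-116309938 (-) for Isl1.
Hand2: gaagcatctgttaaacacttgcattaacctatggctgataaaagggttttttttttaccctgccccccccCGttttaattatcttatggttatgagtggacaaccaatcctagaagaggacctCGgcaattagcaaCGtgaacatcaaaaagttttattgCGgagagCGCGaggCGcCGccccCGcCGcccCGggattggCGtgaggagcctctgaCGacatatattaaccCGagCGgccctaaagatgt
Mef2c: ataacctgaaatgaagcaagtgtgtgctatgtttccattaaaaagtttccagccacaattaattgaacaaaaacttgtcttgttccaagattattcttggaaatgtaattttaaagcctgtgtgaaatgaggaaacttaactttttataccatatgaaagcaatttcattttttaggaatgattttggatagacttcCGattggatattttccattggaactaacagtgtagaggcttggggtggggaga
Tbx20: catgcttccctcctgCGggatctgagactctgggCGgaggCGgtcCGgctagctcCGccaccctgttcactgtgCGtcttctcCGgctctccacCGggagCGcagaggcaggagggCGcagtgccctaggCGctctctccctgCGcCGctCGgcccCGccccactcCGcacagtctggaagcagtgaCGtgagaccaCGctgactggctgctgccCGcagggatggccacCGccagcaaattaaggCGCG
Nkx2-5: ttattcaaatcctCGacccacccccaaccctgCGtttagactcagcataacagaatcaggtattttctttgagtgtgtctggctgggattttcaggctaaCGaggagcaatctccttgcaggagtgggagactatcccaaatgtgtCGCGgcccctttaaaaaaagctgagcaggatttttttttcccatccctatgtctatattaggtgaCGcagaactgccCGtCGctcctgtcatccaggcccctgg
Isl1: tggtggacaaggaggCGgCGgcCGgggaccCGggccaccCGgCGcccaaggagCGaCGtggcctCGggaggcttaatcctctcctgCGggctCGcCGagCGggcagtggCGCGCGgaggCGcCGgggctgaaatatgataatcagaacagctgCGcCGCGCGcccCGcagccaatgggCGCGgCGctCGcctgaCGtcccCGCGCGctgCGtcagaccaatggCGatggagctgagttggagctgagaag

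The windows differed widely in CpG content. Isl1, the factor with the smallest difference, had 33 CpGs, a number reached by 4.0% of 32807 mouse promoter windows of that length. Tbx20 had 22 (reached by 14.8%) and Hand2, with the largest decrease, 15 (27.3%). Nkx2-5 had 8 (43.0%), near the median of 6 over all windows. The 3 Mef2c windows had 1, 6 and 4. With 5 genes no relation between CpG content and the change in expression can be tested. Motifs of the factors themselves were searched on both strands. The GATA motif AGATAA was present in the Hand2 window only, among these 7, and in 10.0% of all windows. The E box CANNTG, the motif of helix-loop-helix proteins such as HAND1 and HAND2, occurred 2 times in Hand2, 2 times in the first Mef2c window, and 1 time each in the third Mef2c window, Nkx2-5 and Isl1 (66.2% of all windows hold it). The NKX2-5 core AAGTG occurred 1 time in Hand2 and in each Mef2c window (40.7% of all), with 1 overlap with an E box in Hand2 and 1 in the first Mef2c window. The T-box motif AGGTGT occurred 1 time in the second Mef2c window (11.8% of all), and the MEF2 motif, found in 2.9% of all windows, in none of these.

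Relatives of the 8 factors by protein family were counted next. Of 30 family members listed, 27 were tested. Of these, 6 fell (22.2%, beside 6.59% of all genes) and 1 rose (4.05% of all genes). Their median differences were -0.09 in TKO_26 and -0.13 in TKO_29. Of the GATA family, Gata6, the partner of GATA4 in heart and endoderm, fell by 2.36 and 2.06 in TKO_26 and TKO_29, and the blood factors Gata1 (-1.16 and -1.27) and Gata2 (-1.28 and -1.18) fell too. Gata5 (-0.09 and -0.60) and Gata3 (-0.42 and -0.59) did not pass. In the MEF2 family Mef2a (0.19 and 0.08) and Mef2d (-0.03 and 0.20) did not pass, both measured on all arrays, in contrast to the bound for Mef2c. Mef2b rose by 1.58 and 2.12 from a signal above background on 1 WT array, a call lost under 9 of 14 alternatives.

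Among T-box genes, Tbx2, a repressor of chamber genes in the atrioventricular canal, fell at least 8.86-fold (-3.37 and -3.15, measured on 3 of 4 TKO arrays). Tbr1, best known from cortical neurons, was seen in WT and lost from view on every TKO array, at least 8.58-fold lower. Tbx1 (-0.68 and -0.56), a factor of the pharyngeal second heart field, and Tbx3 (-0.26 and -0.90), of the conduction system, did not pass, nor did the early mesoderm gene Eomes (0.14 and 0.07). T, the brachyury gene of the primitive streak, was 1.15 higher in TKO_26 and 0.63 in TKO_29 and did not pass. Of the NKX2 genes, Nkx2-6, a pharyngeal relative of Nkx2-5, fell (-1.45 and -2.23), but its call was lost under 11 of 14 alternatives. Nkx2-6 was not well above background on TKO_26 replicate 1, so its decrease in TKO_26 is a bound of at least 1.73-fold. Nkx2-3 (-1.26 and -0.74) did not pass. Isl2, the relative of Isl1, differed by -0.63 and -0.86 and, like Isl1, stayed short of 2-fold. With normexp background correction 2 of the 27 relatives fell in place of 6. With signal demanded on all 6 arrays 3 of 18 fell, beside 4.78% of all genes.

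Other regulators of heart development were counted on a list of 36 genes, 10 of them also counted as relatives above. Of 33 tested, 12 fell (36.4%, beside 6.59% of all genes) and 1 rose (4.05% of all genes). Their median differences were -0.62 and -0.60. With signal demanded on all 6 arrays 8 of 27 fell, beside 4.78% of all genes. Myocd, encoding the coactivator myocardin of cardiac and smooth muscle, fell most, 26.4-fold (-4.28 ± 0.21 and -5.17 ± 0.21, SE). Smarcd3, a chromatin remodelling subunit of heart progenitors, fell 11.2-fold. Zfpm2, the GATA4 cofactor FOG2, was at least 4.81-fold lower and above background on 2 of 4 TKO arrays. Foxc2 fell 9.11-fold and Mesp1, the factor of the earliest cardiac mesoderm, at least 4.79-fold. By contrast Srf (-0.12 and -0.06), the partner of myocardin, Irx4 (-0.38 and -0.41), a ventricular factor, and Tead1 (-0.23 and 0.10) did not pass.

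Signals listed for the induction of heart mesoderm, a list that includes the inhibitor Nog, fell more often than they rose. Of 16 tested, 6 fell (37.5%, beside 6.59% of all genes) and 2 rose (4.05% of all genes). Under the alternatives 5 to 6 fell, and 0 rose under 4 of 15. With signal demanded on all 6 arrays 5 of 13 fell, beside 4.78% of all genes. Bmp4 (4.07-fold) and Bmp2 (2.84-fold), ligands that induce Nkx2-5 and Gata4, fell, as did Wnt5a (3.61-fold), Tgfb2 (3.75-fold), Cer1 (2.66-fold) and Bmp5 (at least 3.03-fold). Shh, a ligand of pharyngeal endoderm, rose by 1.51 and 2.11 from 1 WT array above background, and Nog, an inhibitor of BMP ligands, rose by 1.07 and 1.01. The calls of Shh and Nog were lost without TKO_26 replicate 1 (0 of 16 rose), that of Nog under 10 of 15 alternatives and that of Shh under 4 of 14. Wnt11 (-0.97 and -0.85) and Fgf10 (-0.90 and -1.05), a second heart field ligand, did not pass.

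Genes of heart muscle, listed as targets of these factors, fell in most cases. Of 23 tested, 19 fell (82.6%) and 0 rose, with median differences of -4.20 and -4.28. Whether the factors act on these genes in these cells was not tested, nor whether these decreases follow from those of the factors. The calls reached from contractile genes to Gja5, the gap junction protein connexin 40 and a known target of TBX5 and NKX2-5 (at least 38.4-fold, on no TKO array above background). The atrial myosin light chain Myl7 fell at least 209.5-fold and the ventricular one, Myl2, at least 60.7-fold. Cardiac troponin T, Tnnt2, fell 94.98-fold, the alpha myosin heavy chain Myh6 56.2-fold and the slow troponin I Tnni1 51.0-fold. Gja1, encoding connexin 43 and expressed in many tissues, was 0.19 and 0.88 higher and did not pass. The count stayed between 17 and 19 under all alternatives other than those that change the filter. With signal demanded on all 6 arrays 12 of 13 fell.

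Since most of these factors also act outside the heart, markers of those tissues are given beside them; their part in the decreases of the factors was not tested. Markers of extraembryonic endoderm, where Gata4 and Gata6 are also expressed, fell in 9 of 11 cases. Their summed level (of unlogged scaled signals) was 5.54 to 5.88 in WT, 1.85 to 2.02 in TKO_26 and 1.77 to 1.85 in TKO_29. Bright probes weigh most in such a sum, which does not measure the amount of a cell type. Afp and Apob were above background on no TKO array, at least 22.6-fold and 12.5-fold lower, whereas Foxa2 (0.09 and -0.02) and Sox17 (-0.54 and -0.65) did not pass. With signal demanded on all 6 arrays 5 of 7 endoderm markers fell. Of 10 trophoblast markers, which bear on Hand1, 6 fell, and the summed level was 7.63 to 8.07 in WT, 5.82 to 6.64 in TKO_26 and 4.06 to 4.11 in TKO_29. Ctsq and Elf5 were above background on no TKO array, while Gcm1 (0.56 and -0.18), Ascl2 (0.14 and -0.11) and Tfap2c (0.46 and -0.05) did not pass. With signal demanded on all 6 arrays 1 of 5 trophoblast markers fell, and the count ranged from 1 to 7 under the alternatives.

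Endothelial markers, which bear on Mef2c, fell in 9 of 12 cases, with a summed level of 4.69 to 4.82 in WT, 1.13 to 1.21 in TKO_26 and 0.88 to 0.90 in TKO_29. Tie1 and Sox7 were above background on no TKO array. With signal demanded on all 6 arrays 2 of 5 endothelial markers fell. The call of Erg was lost under 11 of 14 alternatives. Only 3 of 8 macrophage and blood markers entered the tests, and 1 fell, Csf1r (-1.21 and -1.53). Smooth muscle and mesenchyme markers fell in 5 of 9 cases, among them Twist2 (16.7-fold) and Pdgfrb (9.06-fold), with a summed level of 16.0 to 21.96 in WT, 8.82 to 10.7 in TKO_26 and 6.32 to 9.09 in TKO_29.

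Of 7 neuron and pancreas markers tested, which bear on Isl1, 1 fell, Tubb3 (-1.62 and -2.12), a call lost under 7 of 15 alternatives, and the summed level was 0.23 to 0.33 in WT, 0.15 to 0.17 in TKO_26 and 0.14 in both TKO_29 arrays. The partner genes Lhx3 (-1.05 and -0.55) and Neurod1 (-1.13 and -0.32) did not pass. Of 6 neural crest markers, which bear on Hand2, 0 fell and 1 rose, Sox10 (1.16 and 1.05), a call lost under 8 of 14 alternatives. Of 9 skeletal muscle markers listed, 4 were tested. The paired box genes Pax3 (1.98 and 1.67) and Pax7 (1.75 and 2.24) rose, and the other 2 did neither. Whether these rises come from skeletal muscle cells was not tested. Pax7 was above background on no WT array and 3 TKO arrays, and its call was lost under 3 of 14 alternatives. The summed level of skeletal muscle markers was 0.27 to 0.36 in WT, 0.31 to 0.35 in TKO_26 and 0.35 to 0.38 in TKO_29. Of 9 pluripotency markers, 5 rose, with a summed level of 4.98 to 5.08 in WT, 9.77 to 9.86 in TKO_26 and 7.79 to 8.27 in TKO_29.

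**Figure D4:**
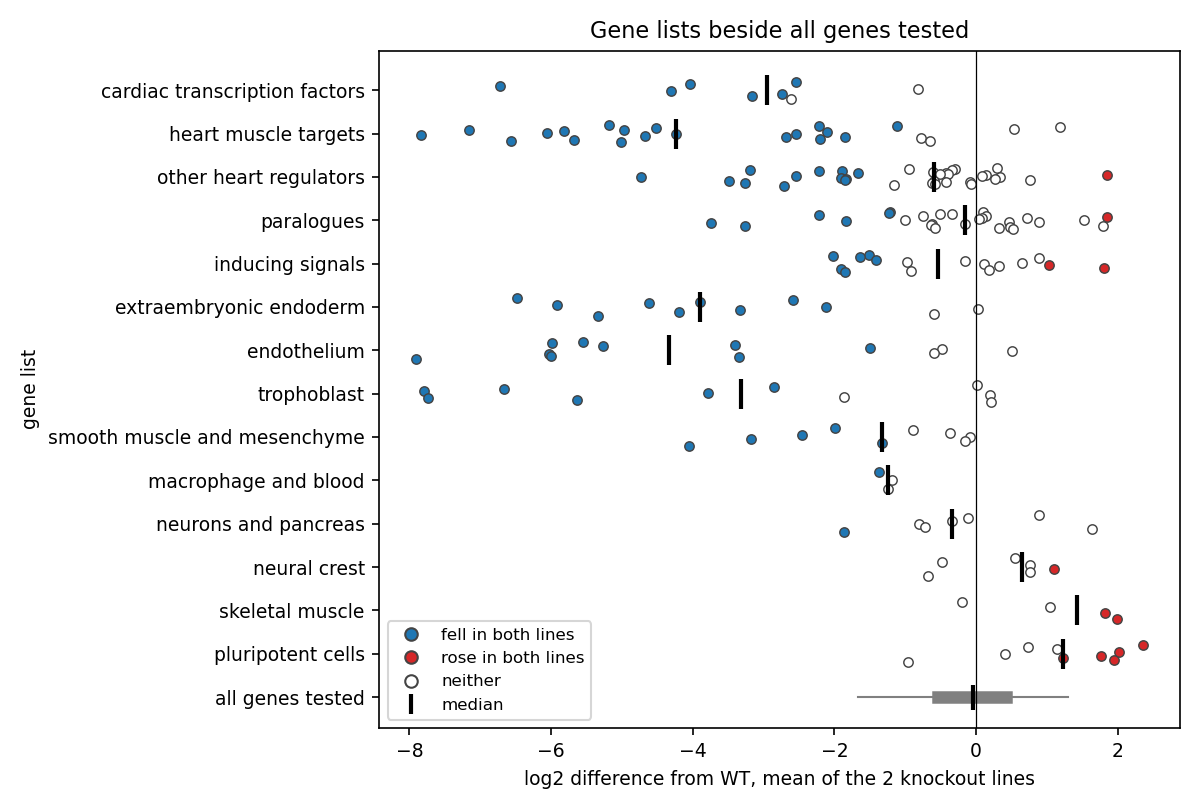
Log2 difference from WT, averaged over the 2 knockout lines (horizontal axis), for the tested genes of each list (rows). Blue genes fell and red genes rose in both lines, black bars are list medians, and the bottom row shows the median, middle 50% (thick bar) and middle 90% (thin line) of all 21420 genes and features; the medians of the cardiac factors, heart muscle targets, endoderm, endothelium and trophoblast lists lie farthest to the left.

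The genes whose profile over the 6 arrays was closest to each factor (smallest root mean square difference between centred profiles, over 13976 named genes compared) were of varied kinds. This is a description of 3 lines and says nothing of shared control. Nearest to Nkx2-5 were Slc7a8, an amino acid transporter (0.05), Pparg (0.13) and Dok4 (0.14). Nearest to Gata4 were the endothelial gene Plvap (0.09), Dio3os (0.11) and the myosin light chain Myl3 (0.12). Hand1 was closest to Actg2, a smooth muscle actin (0.13), Twist2 (0.16) and Itga9 (0.17), and Hand2 to the placental cathepsin Ctsj (0.14), Ghrh (0.20) and the globin Hba-a2 (0.26). Isl1 was closest to Epor, the erythropoietin receptor (0.05), Nr1h3 (0.05) and Slc39a8 (0.06), none of which passed in both lines. For Tbx5, Tbx20 and Mef2c the nearest genes lay 0.18 to 0.38 away. For Mef2c they were Fgf6, Hspb7 and Oit3, all above background on no TKO array.

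**Figure D5:**
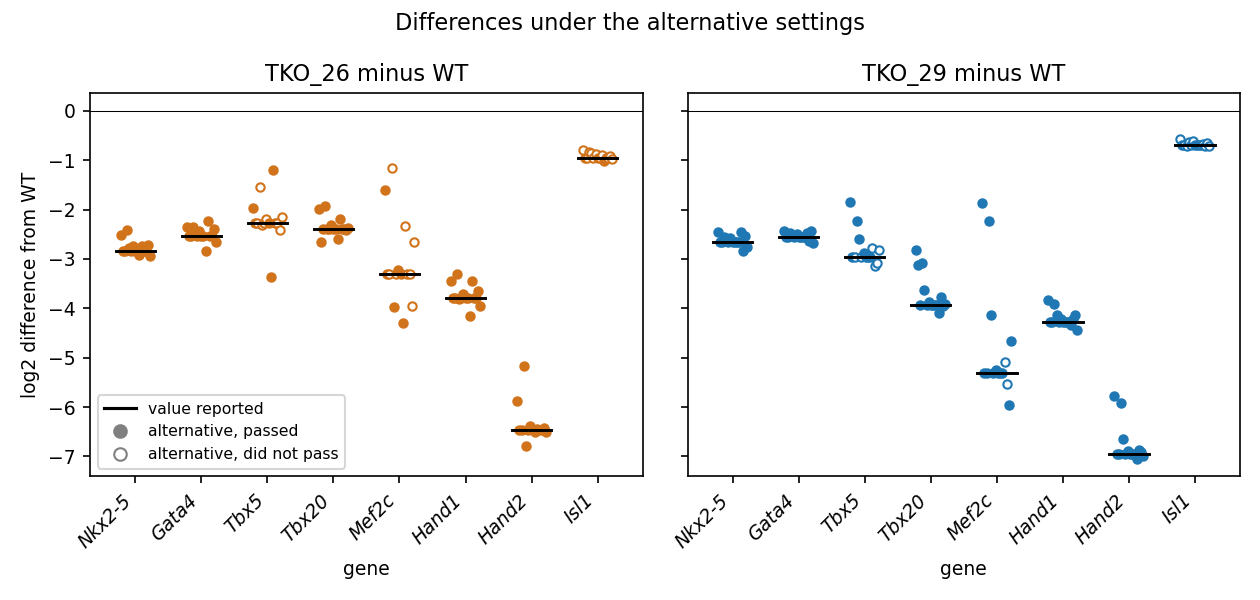
Log2 difference of each factor from WT in TKO_26 (left) and TKO_29 (right) as reported (black lines) and under up to 15 alternative settings (points; filled where the gene passed the test). All points lie below 0, and the calls of Nkx2-5, Gata4, Tbx20, Hand1 and Hand2 held in both lines wherever they were tested, while those of Tbx5 and Mef2c did not.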

How the data were processed

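The deposited files are Agilent scanner output of Cy3-labelled total RNA, 1 file for each of 6 arrays. Per the file headers, Feature Extraction 10.5.1.1 wrote for every spot a processed signal, an intensity after background subtraction and spatial detrending, not normalized between arrays, and the design was built on mm9. A deposited log2 table of the same arrays, for which no steps are stated, served only as an alternative.

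Control spots and outlier spots were dropped (263 probes lost), saturated spots kept (none among the 10 probes), and repeated spots averaged as log2. Through accessions in a RefSeq table (GRCm38.p6), 27365 of 55418 probes (49.4%) received a symbol. Scaling subtracted the 75th percentile of 19173 probes detected everywhere. Tested probes were detected on both arrays of some line, and the brightest stood for its gene. The fit was limma 3.58.1 (lmFit, eBayes) in R 4.3.3 of 3 groups over 6 arrays (residual degrees of freedom 3), and a second fit took line averages. Benjamini-Hochberg adjustment ran over all 21420 genes and features. "At least" marks a bound: an array without detection entered at its own signal or the dimmest detected signal, whichever was larger. These bounds are approximate, because an undetected spot can lie above the dimmest detected signal. On TKO_26 replicate 1 that signal was -6.24, and Tbx5 was undetected at -5.57. The procedure was tested on simulated data with independent noise and the same shift on all 4 TKO arrays. Those data held no spread between lines and no detection floor. Motifs and figures used Python 3.11.15.

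The 8 factors, the lists and the tests were chosen with earlier results of these data known. Named from a list were at most 6 genes called in both lines, by size of mean difference, and relatives of the factors; any further name was chosen after its values were seen. The numbers of arrays and lines limit precision.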

Additional observations from a re-analysis of the deposited data

Results flagged for a closer look

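For 3 genes of the lists every array of one TKO line lay above both WT arrays and every array of the other below them, and none of these differences between TKO_26 and TKO_29 passed the test. Tet3, a targeted gene, was 1.67 higher in TKO_26 than in TKO_29 on its brightest probe (limma adjusted p = 0.101). Gcm1, a trophoblast transcription factor, was 0.74 higher in TKO_26 (limma adjusted p = 0.1). Tead1, a transcription factor of heart and many other tissues, was lower in TKO_26 than in TKO_29, with a difference of -0.33 (limma adjusted p = 0.204). None of the 8 cardiac factors showed such a pattern.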

How the results depend on the processing

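All 8 factors kept a negative difference in both lines under every alternative that tested them. Of the 117 values under alternatives for TKO_26 against WT, 104 kept their side of the threshold, 8 lost the call and 5 gained it; for TKO_29 these were 109, 8 and 0. The factors called in both lines numbered 4 to 7, and 5 to 7 with 1 array left out. They were 7 without TKO_26 replicate 1, under a variance trend and on the deposited log2 table (Tbx5 added), and 5 with normexp (Mef2c lost). With signal demanded on all 6 arrays they were 4, since Hand2, Mef2c and Tbx5 were then not tested. The replicate numbers were not treated as pairs. Across genes, the differences between the arrays of a line correlated at 0.39 for WT and TKO_26. The correlation was -0.36 for WT and TKO_29 and -0.44 between the TKO lines. These values do not settle whether arrays of the same number share a batch. With the replicate block 2079 genes passed in both lines in place of 2279, and 5 of the 8 factors, Mef2c being lost.

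Counts over all genes moved more. The genes called in TKO_26 (2869), in TKO_29 (4147), in both lines (2279) and on line averages (194) became 1416, 2663, 1196 and 809 with normexp, 1410, 2549, 1278 and 0 without the filter, and 1499, 2534, 1183 and 0 with signal demanded on all 6 arrays. On line averages the count was also 0 with quantile normalization, 306 with probes averaged, 1777 on the deposited log2 table and 1520 under a variance trend; limma's unadjusted p was under 0.05 for 1262 to 3392 genes where the count was 0. Between the TKO lines it was 1 with scaling over all probes, 246 on the deposited table, 337 with signal demanded on all arrays and 483 with a variance trend, against 0. With 1 array left out the counts ranged from 2150 to 3444 in TKO_26, 2716 to 4322 in TKO_29, 1671 to 2223 in both lines, 0 to 1437 on line averages and 0 to 932 between the lines; the lone array of a line was then assumed to vary like the others. The cause of these shifts was not tested, except that fewer or more genes were tested under the changed filters. Higher calls made up 38% of those in both lines, and 25.5% with normexp; in TKO_29 they were 42.1%, with 27.2% under normexp and 52.3% under quantile normalization. Normexp moved the median of all genes in TKO_29 from -0.09 to -0.31. Dim probes limit Mef2c and Tbx5.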
